A study of Saccharomyces cerevisiae with 268 samples.

Results

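The columns described here came from budding yeast, Saccharomyces cerevisiae, strains that each lacked 1 of 4 genes for basic helix-loop-helix (bHLH) transcription factors: CBF1 (YJR060W), RTG1 (YOL067C), RTG3 (YBL103C) and HMS1 (YOR032C). The members were chosen by the deleted gene in the sample titles, which gave 4 columns, 1.49% of all deletion columns in the series, and every other column served for comparison. Per the labels, the total RNA came from mid-log cultures, with Cy5 on the deletion strain and Cy3 on wild type, so wild type was the reference in every column. Each deletion had 1 column and no replicate. The labels state neither strain background, mating type nor medium, and they do not say how many cultures or clones stand behind a column.

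The bHLH factors bind short E-box or related DNA sequences as dimers. Cbf1 binds centromeres and promoters of sulfur amino acid genes, where it helps to recruit the activator Met4. Rtg1 and Rtg3 form a heterodimer that drives the retrograde response, in which damaged mitochondria or poor supply of glutamate raise the genes for the early steps of the citrate cycle and for peroxisomal citrate synthase. Rtg2 promotes nuclear entry of the dimer, and Mks1 with the 14-3-3 proteins Bmh1 and Bmh2 opposes it. Hms1 is a much less studied factor that promotes filamentous growth when overexpressed.

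The deposited values are signed scores of deletion over wild type, with no stated log base or normalization, so all differences are in score units and none is a fold change. A gene's difference is its score in 1 column minus its mean over all other columns. It was tested by limma with Benjamini-Hochberg adjustment over all genes tested and a threshold of 0.05. The SE printed after ± is that of the difference and comes from the spread between columns of different genotypes, since no column has a replicate. "Rose" and "fell" are kept for genes that passed this test. Of 6419 features, 5615 named genes with a score in at least 80% of columns were tested. The SD of the scores in a column was 0.76 in RTG1, 0.94 in RTG3, 0.97 in HMS1 and 0.99 in the column labelled CBF1.

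The deleted genes were read first as a check of the labels. RTG3 stood at -3.77 in its own column, the lowest of all columns, against a median of -0.05 and a range of -1.66 to 2.0 in the others. RTG1 stood at -1.69 in its own column, below all but SPT4 (-1.83) and SRB2 (-1.70), and the others had a median of -0.22. HMS1 stood at -1.75, below all but SNF11 (-2.52) and SRB2 (-2.08), against a median of 0.49. CBF1 stood at -0.30 in the column with its name, close to the median of -0.21 in the others, and 44.6% of the other columns had a lower CBF1 score. That column is therefore called the column labelled CBF1 throughout, and every direction drawn from it carries this limit. Probe positions were not stated, and a probe outside the deleted part would check nothing. Over the series, 61.6% of own genes with a score lay in the lowest 5% of columns.

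**Figure D1:**
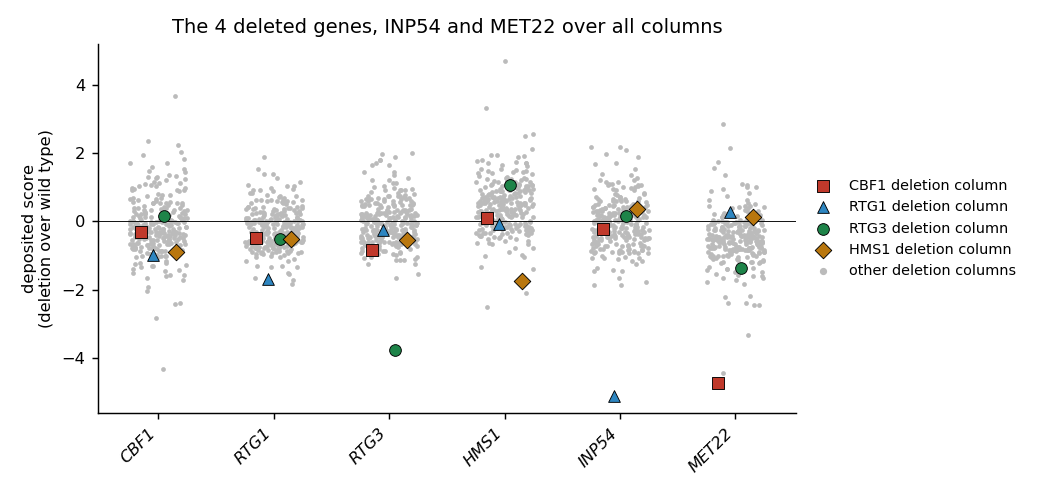
Scores (deposited score, deletion over wild type, y axis) of the 4 deleted genes and of INP54 and MET22 (x axis) in all deletion columns, 1 point per column with coloured markers for the 4 bHLH columns. RTG3 is lowest in its own column at -3.77, CBF1 lies within the cloud in its own column, and INP54 stands at -5.12 in the RTG1 column.

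Without RTG3, genes of the early citrate cycle were among the lowest of the column and genes for ammonium and amino acid use among the highest. The test passed 8 of 5571 genes (0.144%), of which 7 rose and IDH1 alone fell. IDH1, a subunit of mitochondrial NAD-dependent isocitrate dehydrogenase, was at -6.07 in the RTG3 column, at -0.82 in the RTG1 column, at 2.30 in the column labelled CBF1 and at -2.67 in the HMS1 column. Its difference without RTG3 was -5.46 ± 1.16 (adjusted p = 0.00416). The RTG3 column was the lowest of all for IDH1, with the SEF1 column next at -5.92 and the SIF2 column at -3.52. After quantile normalization between columns the IDH1 difference was -3.70 with an adjusted p of 0.826, so its call depends on the scaling.

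The other retrograde genes in the RTG3 column are given by their scores. ACO1, the mitochondrial aconitase, stood at -6.29, the lowest of all columns, against a median of -1.52 (adjusted p = 0.460). The SEF1 and AFT1 columns came next for ACO1, at -5.90 and -5.56. CIT1, the mitochondrial citrate synthase, stood at -3.86, again the lowest, against a median of -0.57, with AFT1 next at -3.2. CIT2, the peroxisomal citrate synthase and usual reporter of the pathway, stood at -4.13, with only the MCM1 column lower at -4.75 and a range up to 6.08. DLD3, a cytosolic lactate dehydrogenase, stood at 0.58 and IDH2, the partner subunit of IDH1, at 0.25, both inside the bulk of the other columns. The 6 genes thus split into 4 at or next to the bottom and 2 that were not low. All 4 low genes had an unadjusted p under 0.05 in the lower direction, where 2.44% of all genes did, and the list median difference was -3.79 beside -0.11 for all genes. The list median score of -4.0 was the lowest of all columns. Lowest or highest of all columns, and over 2 from the median of the others, were 25 genes of the RTG3 column (0.449%), and ACO1, CIT1 and IDH1 were 3 of them.

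YHM2, a mitochondrial carrier that exchanges citrate and oxoglutarate, was lowest of all columns without RTG3 at -3.29 and missed the threshold with an adjusted p of 0.0547. YHM2 was named after its values were seen. A list of 14 other genes in and around the citrate cycle did not share the pattern. It holds the later cycle genes and also PYC1, PYC2 and IDP1. None of the 14 had an unadjusted p under 0.05, and the median difference was -0.17. Peroxisomal and cytosolic malate dehydrogenase were lower, with MDH3 at -2.21 and MDH2 at -2.98, but neither passed.

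**Figure D2:**
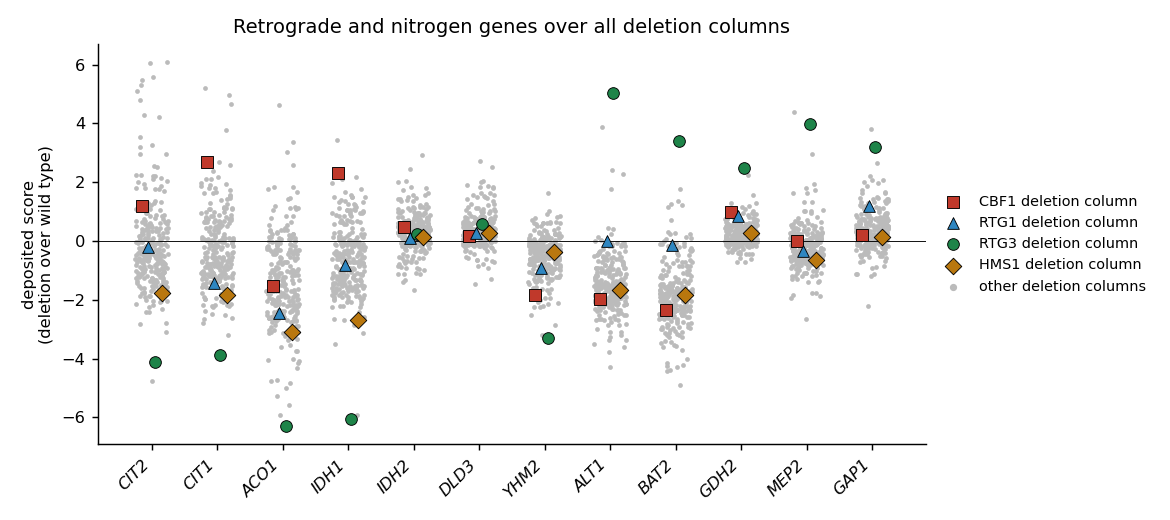
Scores (deposited score, deletion over wild type, y axis) of 12 retrograde and nitrogen genes (x axis) in all deletion columns, 1 point per column with coloured markers for the 4 bHLH columns. The RTG3 column is lowest for CIT1, ACO1, IDH1 and YHM2 and highest for ALT1, BAT2 and GDH2, and the RTG1 column lies inside the cloud for CIT2, CIT1, ACO1 and IDH1.

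The genes that rose without RTG3 mostly handle nitrogen. ALT1, the mitochondrial alanine transaminase, was at 5.02 in the RTG3 column and at -0.01 in RTG1, -1.99 in the column labelled CBF1 and -1.67 in HMS1. It rose by 6.49 ± 0.93 (adjusted p = 1.49e-07), and the nearest other column, HSF1, reached 3.89. BAT2, the cytosolic branched-chain aminotransferase, was at 3.39 without RTG3 against a median of -1.91 and rose by 5.21 ± 1.08 (adjusted p = 0.00319). HSF1 and EDS1 were the columns next below RTG3 for both transaminases, and for BAT2 HSF1 reached 3.33, close to RTG3. GDH2, the NAD-dependent glutamate dehydrogenase that releases ammonium, was at 2.49, above every other column, and rose by 2.24 ± 0.40 (adjusted p = 0.000104).

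Permeases under nitrogen catabolite control were also high. MEP2, a high-affinity ammonium permease, was at 3.98 and rose by 4.18 ± 0.72 (adjusted p = 4.67e-05). GAP1, the general amino acid permease, was at 3.20 and rose by 2.82 ± 0.67 (adjusted p = 0.0233). For both permeases only the GZF3 column, which lacks a GATA repressor of nitrogen genes, stood higher, at 4.39 for MEP2 and 3.81 for GAP1. Over the 18 tested nitrogen catabolite genes, 1 passed and 4 had an unadjusted p under 0.05 in the higher direction, where 1.38% of all genes did. The median difference was 0.91, and the list median was the 6th highest of all columns. MEP3, another ammonium permease, stood at 2.35, AGP1, a broad amino acid permease, at 3.06 and CAN1, the arginine permease, at -0.57. MEP2 was held in the filamentous growth list and so is not part of that count.

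The remaining genes that rose without RTG3 were YJR149W and YAR064W. YJR149W lies next to BAT2 on chromosome X with no gene between them, was at 2.87 and rose by 3.42 ± 0.81 (adjusted p = 0.0233). YAR064W on chromosome I was at 3.69 and rose by 4.20 ± 0.95 (adjusted p = 0.0132). The SPT10 column was higher for YAR064W at 4.35, and DIG1 was next below RTG3 at 3.64. Quantile normalization ended the calls of GAP1, YJR149W and YAR064W, with adjusted p of 0.211, 0.144 and 0.144.

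Amino acid synthesis from oxoglutarate and branched-chain precursors was lower in places. Of 9 lysine synthesis genes, 4 had an unadjusted p under 0.05 in the lower direction, where 2.44% of all genes did, and none passed. LYS12 was at -3.69, LYS20 at -2.94, LYS9 at -2.76 and LYS21 at -2.59. The lysine list had a median difference of -1.78, and its median score of -2.59 ranked 5th lowest of all columns. LEU1, which makes the leucine precursor, stood at -4.65 (adjusted p = 0.368), and BAT1, the mitochondrial partner of BAT2, at -3.87 where BAT2 stood at 3.39. The genes of glutamate and glutamine synthesis were near the other columns, with GDH1 at -0.41, GLT1 at -0.11 and GLN1 at -1.28.

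Iron uptake genes stood high without RTG3. FIT3, a cell wall protein that retains siderophores, was at 6.01, FIT2 at 4.16 and the siderophore transporter ARN2 at 3.45. Of 11 genes, none passed and 2 had an unadjusted p under 0.05 in the higher direction, where 1.38% of all genes did. The median difference was 1.93, and the list median score of 1.46 was 12th highest of all columns. Scores of these genes varied widely over the series, with an SD of 2.34 for FIT3.

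Cytochrome oxidase genes had a median difference of -1.25 and ATP synthase genes of -1.03 without RTG3, with none passing. Short genes as a whole were low in this column, with a median difference of -0.44 for genes up to 400 bases and 0.22 for those over 3200 bases, and all 8 cytochrome oxidase genes are at most 468 bases long. The part of gene length in these values was not tested. Over 5571 genes the Spearman correlation of difference with length was 0.30, the 26th highest of all columns. It is a description over genes measured in 1 column. The 6 retrograde core genes are 1083 to 2337 bases long, and genes over 800 and up to 1600 bases had a median difference of -0.14.

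In the RTG1 column, the retrograde genes lay inside the range of the other columns. CIT2 was at -0.22, CIT1 at -1.42, ACO1 at -2.45, IDH1 at -0.82, IDH2 at 0.09 and DLD3 at 0.25. CIT1 stood closest to an end, at rank 41 from the lowest. The list median difference was -0.22 beside -0.03 for all genes, and none had an unadjusted p under 0.05, where 2.3% of all genes had one in the lower direction and 0.97% in the higher. RTG1 itself was low in this column at -1.69, although SPT4 and SRB2 were lower, so its score does not settle the label. Whether this strain lacks RTG1 was not tested, and every direction drawn from this column carries this limit.

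INP54 alone passed in the RTG1 column, 1 of 5568 genes (0.018%). After quantile normalization 20 genes passed, 6 higher and 14 lower. It was also 1 of 11 genes (0.198%) that were lowest or highest of all columns and over 2 from the median of the others. INP54 encodes a phosphatase of the membrane lipid phosphatidylinositol 4,5-bisphosphate. It stood at -5.12 in the RTG1 column, at -0.21 in the column labelled CBF1, at 0.16 in RTG3 and at 0.37 in HMS1. No other column was below -1.86, the score in CAD1. The difference was -5.08 ± 0.71 (adjusted p = 4.13e-08). INP54 lies close to RTG1 on chromosome XV, with RIB2 between them. RIB2, a riboflavin synthesis gene, stood at -0.07, and MET22 on the far side of INP54 at 0.29, so the low score was held by INP54 and not by either gene beside it. On the other side of RTG1, HST1 stood at -0.37 and NUF2 at -0.64.

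Some listed genes of the RTG1 column stood near an end of the series without passing. GLT1, glutamate synthase, was at 2.14, the 5th highest of its values. MDH1, mitochondrial malate dehydrogenase, was at -2.35, the 3rd lowest. GRR1, the F-box protein that turns over Mks1, was at -1.20, with 5 columns lower. GDH2 was at 0.87, GAP1 at 1.20, MEP2 at -0.36 and BAT2 at -0.15.

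The direct difference between RTG1 and RTG3 rested on 1 column against 1 column, with the spread taken from the columns outside the bHLH set. In this comparison 1 of 5526 genes passed (0.0181%), and it was INP54, lower in RTG1 by 5.28 ± 1.01 score units (RTG1 minus RTG3 = -5.28, adjusted p = 0.00177). IDH1 was 5.24 ± 1.61 higher in RTG1 than in RTG3 and did not pass. CIT2 was 3.91 ± 2.20 higher, ACO1 3.85 ± 2.13 higher and CIT1 2.44 ± 1.80 higher. DLD3 differed by -0.32 ± 0.86 and IDH2 by -0.16 ± 0.94. The median of the 6 differences was 3.14 beside 0.10 for all genes, and 1 of the 6, IDH1, had an unadjusted p under 0.05 in this direction, where 0.778% of all genes did.

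Some genes of nitrogen use had lower scores in RTG1 than in RTG3, and none passed. MEP2, ALT1, BAT2 and GDH2 are named here because they rose in the RTG3 column. Their lower scores in RTG1 follow largely from that choice. MEP2 was at -0.36 in RTG1 and 3.98 in RTG3, a difference of -4.33 ± 1.02 (adjusted p = 0.0796). ALT1 differed by -5.02 ± 1.32 (adjusted p = 0.225). BAT2 differed by -3.54 ± 1.52, and GDH2 by -1.63 ± 0.56. Of 17 nitrogen catabolite genes with a score in both columns, 3 had an unadjusted p under 0.05 in this direction, where 1.57% of all genes did. The median difference of that list was -0.54, beside 0.10 over all genes. In the opposite direction, the arginine permease CAN1 differed by 1.46 and the asparaginase gene ASP3-1 by 0.85. In simulated data for this comparison 200 genes were changed at once. Of those changed by 3 score units 54 of 100 were recovered, and of those changed by 6 units 91 of 100. Among the unchanged genes 8 were called. Each gene was drawn independently from a normal distribution, so genes that vary together were not modelled. So many changed genes loosen the adjusted threshold, and only 1 gene passed in the data, so recovery there may be lower. A missed threshold here therefore does not show that the strains had the same level.

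**Figure D3:**
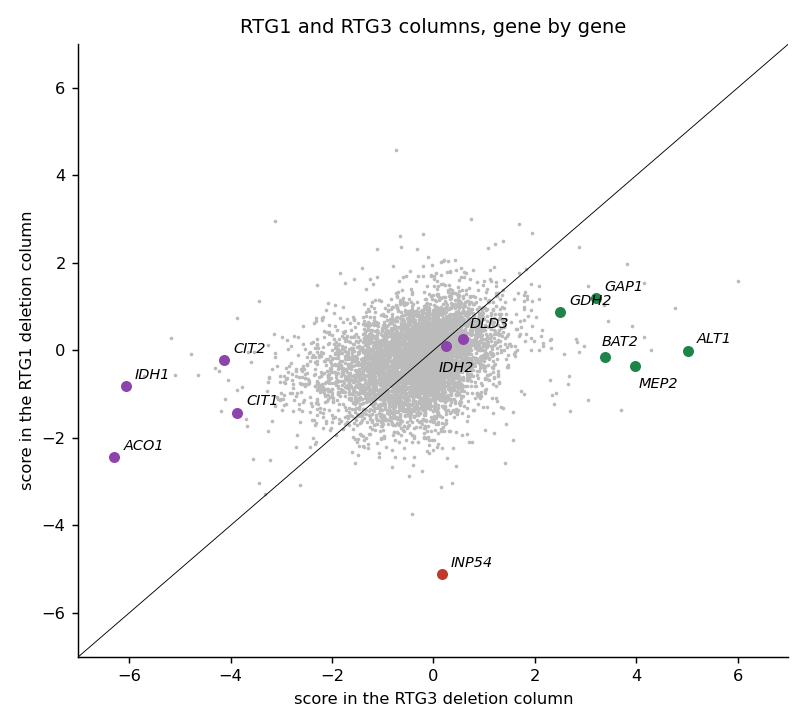
Score of each of 5526 genes in the RTG3 column (x axis) and in the RTG1 column (y axis), with the line of equal scores. The retrograde core genes are purple, 5 nitrogen genes that rose without RTG3 are green and INP54 is red. IDH1, ACO1, CIT1 and CIT2 lie at the left, low in RTG3 and less so in RTG1, while INP54 lies at the bottom, low in RTG1 only of these 2 columns.

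No gene of RTG signalling passed in any of the 4 columns. In the RTG3 column RTG1 was at -0.50, RTG2 at 0.25, MKS1 at -0.57, LST8 at -0.26, BMH1 at -0.86 and BMH2 at -1.71. In the RTG1 column RTG3 was at -0.25, RTG2 at -0.59, MKS1 at -0.90, LST8 at -0.32, BMH1 at -1.36 and BMH2 at -1.5. The list had a median score of -0.90 in the RTG1 column, the 7th lowest of all columns, beside -0.38 as the median of the others. Of its 7 tested genes there, GRR1, a subunit of a ubiquitin ligase, had an unadjusted p under 0.05 in the lower direction, where 2.3% of all genes did. In the column labelled CBF1, RTG2 was at -1.84, the 3rd lowest of its values.

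In the column labelled CBF1, general stress genes stood high and phosphate genes low, and 3 of 5605 genes passed (0.0535%). By place alone, 16 genes (0.285%) were lowest or highest of all columns and over 2 from the median of the others, MET22 and ATX1 among them. MET22, whose product removes the phosphoadenosine by-product of sulfate assimilation, fell. It was at -4.73 in this column, the lowest of all, with RAP1 next at -4.45, and at 0.29 in RTG1, -1.37 in RTG3 and 0.13 in HMS1. The difference was -4.24 ± 0.75 (adjusted p = 0.000272). ATX1, the cytosolic copper chaperone, was at -3.61 against a lowest other score of -1.71 in CRZ1, and fell by 4.14 ± 0.95 score units (difference -4.14, adjusted p = 0.0480). PLB3, a phospholipase B, was at 4.08, with only MCM1 higher at 4.73, and rose by 4.46 ± 1.04 (adjusted p = 0.0480). The calls of ATX1 and PLB3 were lost without the other bHLH columns, with limma adjusted p of 0.0514 and 0.0526. They were also lost without the columns low in alpha-cell genes and after quantile normalization. Over 10 alternative runs ATX1 kept its call in 7, with a highest adjusted p of 0.0580. PLB3 kept its call in 6, with a highest adjusted p of 0.372 and a smallest difference of 3.28.

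Of the sulfur metabolism lists, no gene other than MET22 passed. Over 10 sulfate assimilation genes, MET22 included, the median difference of the list was -0.01. Among genes with a score in every column it was -0.40. The sulfate permeases SUL1 and SUL2 stood at 0.38 and 1.31. The assimilation enzymes stood at 1.0 for MET3, -0.87 for MET14, -0.12 for MET16, 0.43 for MET5 and -0.17 for MET10. MET1 and MET8, which make the sirohaem cofactor, stood at -0.23 and 0.13.

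Methionine and cysteine synthesis had a median difference of -0.57, with none of 13 genes passing. SAM2, an S-adenosylmethionine synthetase, stood at 3.02, 2nd highest of its values, where its paralogue SAM1 stood at -1.41. Homocysteine synthase MET17 was at 0.68, methionine synthase MET6 at -1.36 and homoserine acetyltransferase MET2 at -0.13. The folate genes MET7, MET12 and MET13 were at -1.31, -1.66 and 0.23. The transsulfuration genes CYS3, CYS4, STR2 and STR3 were at -1.54, -2.07, -0.54 and 0.00, and SAH1 at -0.05. The regulators of these genes had a median difference of -0.73 over 4 tested members, 15th lowest of all columns by list median. The activator MET4 was at -1.55, its DNA-binding partners MET31 and MET32 at -1.08 and -0.66, and MET30, which inhibits MET4, at -0.38.

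Uptake of methionine and its relatives was lower as a list, 4th lowest of all columns by its median score of -1.36. MUP1, the high-affinity methionine permease, was at -3.14, the 4th lowest of its values. The permeases MMP1 and SAM3 were at -1.83 and -1.56, MUP3 at 0.25, and the methyltransferases SAM4 and MHT1 at -1.16 and 0.47. Centromere and kinetochore genes had none that passed, with OKP1 at -2.20, the 3rd lowest of its values.

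General stress genes, which the factors Msn2 and Msn4 activate, had a median difference of 3.02, the list median being 5th highest of all columns. Of 16 tested genes, 10 had an unadjusted p under 0.05 in the higher direction, where 1.96% of all genes did, and none passed. TSL1, of trehalose synthesis, stood at 6.0, GLK1, glucokinase, at 5.77, DDR2 at 5.14, the membrane protein HSP12 at 4.74 and the disaggregase HSP104 at 4.50. CTT1, the cytosolic catalase, stood at 1.14, SSA4 at 0.70 and HXK1 at -0.06. These genes vary widely between columns, with an SD of 2.46 for TSL1.

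Phosphate genes had a median difference of -1.76 in the column labelled CBF1, and their list median was 18th lowest of all columns. Of 15 genes, 5 had an unadjusted p under 0.05 in the lower direction, where 2.77% of all genes did, and none passed. The secreted acid phosphatases stood at -5.11 for PHO11, -5.16 for PHO12 and -3.76 for PHO5. PHO11 and PHO12 are near-identical copies, so an array may not separate them. PHM6 was at -4.21, SPL2 at -2.54 and the phosphate transporter PHO84 at -3.02. PHO4, the bHLH activator of these genes, was at -1.93, with 1 column lower and a range of -2.90 to 2.07.

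INO2, INO4 and TYE7 did not pass in any of the 4 columns. In the column labelled CBF1, TYE7, an activator of glycolysis genes, was at 0.84, 18th highest of its values, INO2 at -0.32 and INO4 at 0.57, the last pair being the activators of phospholipid synthesis. In the RTG3 column INO2 was at -1.34, 10th lowest, INO4 at -1.16, 7th lowest, TYE7 at -0.95 and PHO4 at -0.24. In the RTG1 column INO2 was at 0.41, INO4 at 0.88, TYE7 at 0.24 and PHO4 at -0.37. In the HMS1 column they were at -0.01, 0.84, -0.77 and 0.10.

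The 4 deleted genes in one another's columns gave no value that passed. CBF1 was at -0.99 in RTG1, 0.15 in RTG3 and -0.88 in HMS1. RTG3 was at -0.84 in the column labelled CBF1 and -0.55 in HMS1, and RTG1 at -0.49 and -0.53. HMS1 was at 0.10 in the column labelled CBF1, -0.09 in RTG1 and 1.06 in RTG3. The nearest genes of the deleted CBF1 were PTK2 at -0.11 and APS2 at -0.13 on one side, and MNN14 at 0.30 and NTA1 at 0.68 on the other. Beside RTG3 stood SEA4 at 0.32 and PKC1 at 1.32, and on the other side SFT2 at -0.21 and ECM21 at 0.26. Beside HMS1 stood CRS5 at -0.26 and DFG16 at -0.57, and on the other side EXO1 at -0.41 and AKR2 at 0.47. None of these neighbours passed.

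**Figure D4:**
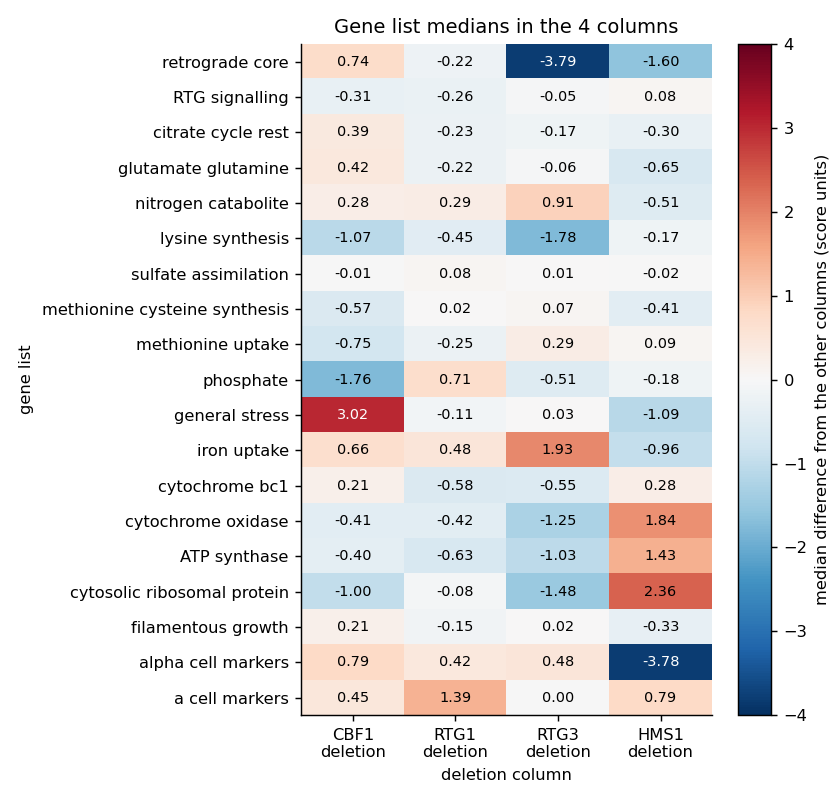
Median difference from the other columns (score units, colour and printed value) for 19 gene lists (y axis) in the 4 bHLH columns (x axis). Retrograde core genes are lowest in RTG3 (-3.79), general stress genes highest in the column labelled CBF1 (3.02), and alpha-cell markers lowest in HMS1 (-3.78).

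In the HMS1 column, genes that only alpha cells express were low, and genes of cytosolic ribosomes, cytochrome oxidase and ATP synthase stood high. Only 2 of 5555 genes passed (0.036%), IML2 and MF(ALPHA)2, and both fell. MF(ALPHA)2, an alpha-factor gene, was at -5.59, with GAL4 lower at -5.95, and the difference was -5.10 ± 1.17 (adjusted p = 0.0485). STE3, the a-factor receptor of alpha cells, was at -6.49, SAG1, alpha-agglutinin, at -2.63 and MF(ALPHA)1 at -1.39. Of these 4 genes, 3 had an unadjusted p under 0.05 in the lower direction, where 2.45% of all genes did. The a-cell genes were not low, with STE2 at -0.11, MFA1 at 2.46, MFA2 at 0.23, STE6 at 0.87, BAR1 at -0.46 and AGA2 at 2.05.

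At least 2 of STE3, MF(ALPHA)1 and MF(ALPHA)2 lay below -2 in the HMS1 column and in 30 other columns. Low STE3 scores in the 30 columns follow from this choice, with a lowest of -8.35, a median of -4.63 and a highest of -2.56. In the rest of the columns STE3 had a median of -0.07 and a lowest score of -6.34. LEU2, a leucine synthesis gene often used as a strain marker, was at -3.60 in HMS1, with a median of -2.17 in the 30 columns and -0.32 in the rest. HMS1 deletion and a strain or reference of another mating type cannot be told apart in 1 column. Against the 30 columns only, a comparison added after seeing the data, no gene passed, the MF(ALPHA)2 difference was -2.43 and that of IML2 was -3.01 (adjusted p = 0.297). The other 3 bHLH columns were not among the 31.

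IML2, a gene linked to the clearance of protein inclusions, was at -2.94, the lowest of its values, with RLM1 next at -1.44, and was 1 of 12 genes (0.216%) lowest or highest of all and over 2 from the median. It was at -0.62 in the column labelled CBF1, -0.06 in RTG1 and 0.30 in RTG3. The difference was -3.19 ± 0.71 (adjusted p = 0.0485). Its call and that of MF(ALPHA)2 were lost when each column was centred on its median (adjusted p = 0.0704 for both) and without the other bHLH columns (0.0538 for both). Both calls were also lost after quantile normalization and without 6 columns written with other digits. These 6 are the columns of GCR1, RAP1, REB1, HSF1, ABF1 and MCM1. RAP1, HSF1 and MCM1 are among the nearest columns quoted above for single genes.

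Filamentous growth genes, the process Hms1 is named for, had a median difference of -0.33, with none of 10 at an unadjusted p under 0.05. FLO11, the adhesin, was at -0.24, TEC1 at -0.84, PHD1 at -0.32 and MEP2 at -0.65. HMS2, which shares the screen but not the protein family with HMS1, was at -2.0.

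The cytosolic ribosomal protein genes, a set taken up after its values were seen, had a median difference of 2.36 in HMS1, and the list median of 2.10 was 7th highest of all columns. Of these genes, 66 (47.8%) had an unadjusted p under 0.05 in the higher direction, where 4.14% of all genes did, and none passed. The same genes had a median difference of -1.0 in the column labelled CBF1, -0.08 in RTG1 and -1.48 in RTG3. Of 8 cytochrome oxidase genes 3, and of 12 ATP synthase genes 4, had an unadjusted p under 0.05 in the higher direction in HMS1. COX8 was at 3.57 and ATP14 at 4.07, each 2nd highest of its values, while the large subunits ATP1 and ATP2 were at -1.14 and -1.07. Of 9 cytochrome bc1 genes none had an unadjusted p under 0.05, and their median difference was 0.28. Their differences ran from -0.63 to 1.42, with 7 above the median of all genes (-0.13) and 2 below it.

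Gene length and the alpha-cell genes moved with some of these values. Genes up to 400 bases had a median difference of 0.66 in HMS1 and those over 3200 bases one of -0.29, and the Spearman correlation with length over 5555 genes was -0.38, 20th lowest of all columns. All 8 cytochrome oxidase genes, 9 of 12 ATP synthase genes and 72 (52.2%) of the ribosomal protein genes are at most 800 bases long. So are 6 of 9 cytochrome bc1 genes, and the median difference over all 9, long ones included, was 0.28. In the 30 other columns low in alpha-cell genes the ribosomal list had a median score of 0.59, against -0.60 in the rest, and 4 of the 30 were above HMS1. The ATP synthase difference was 0.35 against those 30 columns and 1.43 against all. The part of length or mating type in the high scores was not tested.

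Retrograde genes were lower in HMS1 than in most columns, with CIT2 at -1.78, CIT1 at -1.84, ACO1 at -3.10, IDH1 at -2.67, IDH2 at 0.14 and DLD3 at 0.29. None had an unadjusted p under 0.05, and the list median was 8th lowest of all columns. In the column labelled CBF1 the same genes stood at 1.20, 2.69, -1.52, 2.30, 0.47 and 0.17. There 2 of the 6 had an unadjusted p under 0.05 in the higher direction, where 1.96% of all genes did, and only the RPH1 column had a higher IDH1 score.

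**Figure D5:**
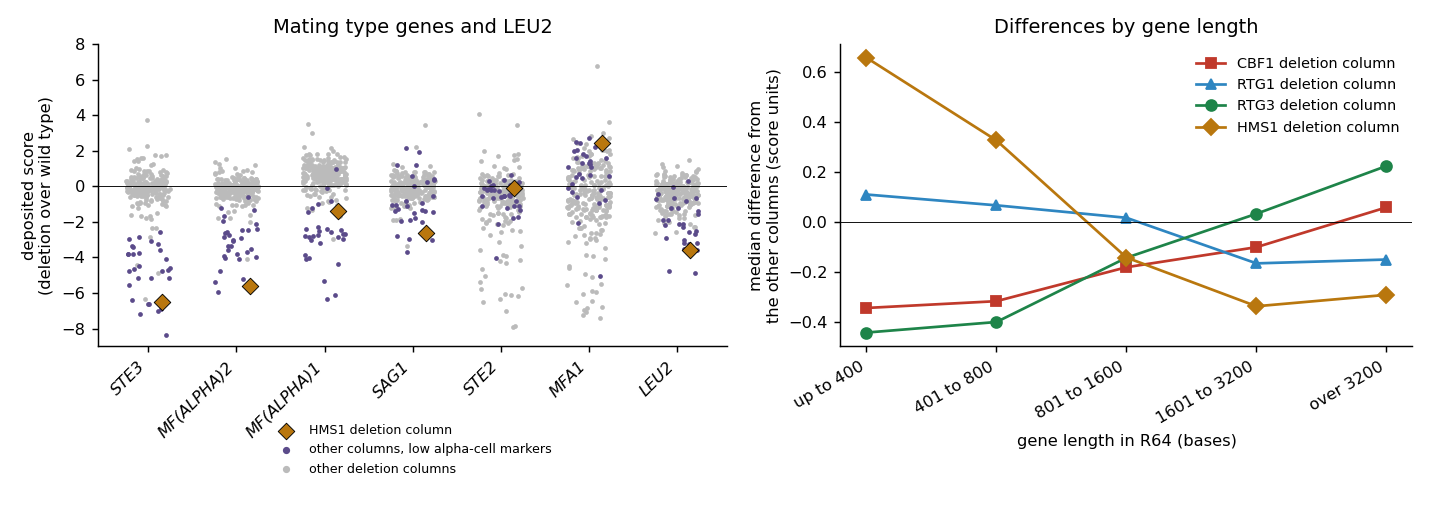
Left, scores (deposited score, y axis) of 6 mating type genes and LEU2 (x axis) in all columns, with HMS1 as a diamond and the 30 other columns low in alpha-cell genes in purple. Right, median difference from the other columns (score units, y axis) by gene length class (bases, x axis) in the 4 columns, falling from 0.66 to -0.29 in HMS1 and rising from -0.44 to 0.22 in RTG3.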

How the data were processed

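Arrays with 2 channels compared RNA of a deletion strain (Cy5) with wild type RNA (Cy3), per the labels. The authors deposited 1 value per feature and column, treated here as a score, because the sources used here state no log base, centring or normalization for it. Direction follows the dyes in the labels, and scores below 0 stand for less RNA without the gene. The planned tests assumed log ratios and were run on the score. The deposited scores ran from -8.35 to 8.05, with 1.25% missing.

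R 4.3.3 with limma 3.58.1 compared each of the 4 columns with all others, after masking each deleted gene in its own column. RTG1 and RTG3 were compared in a fit with 5 means. The lone column was assumed to vary like the others, so p-values measure the spread between genotypes, and technical error cannot be told apart from it. The Benjamini-Hochberg adjustment ran over all genes tested. Ranks place 1 column among all deletion columns and describe it. The number of arrays limits precision, and no spot intensities were used. In simulated data 200 of 5615 genes were changed at once, 100 of them by 3 score units. The latter were recovered 69 times for CBF1, 73 for RTG1, 62 for RTG3 and 75 for HMS1. Far fewer genes passed in the data, where the adjusted threshold is stricter, so these rates may overstate recovery there. Unchanged genes called in the simulation were 9 for CBF1, 6 for RTG1, 9 for RTG3 and 9 for HMS1. Each gene was drawn independently from a normal distribution, so genes that vary together were not modelled.

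The members and the 29 gene lists (297 genes) were chosen with earlier results of these data known, and no list was tested. Named are up to 12 genes each way among those that passed, listed genes that passed, all members of the retrograde, RTG signalling and bHLH lists, sulfur genes in the column labelled CBF1 and the 2 nearest genes on each side of a deleted gene. Other listed genes, and those said to be chosen afterwards, are given by value. Gene names, neighbours and lengths came from the R64 gene table. Alternatives covered centring, scaling, filters, variance and the columns compared. No sequences were used.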

Additional observations from a re-analysis of the deposited data

Results flagged for a closer look

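INP54 differed between the strains of the Rtg1-Rtg3 dimer, by -5.28 (RTG1 minus RTG3), which limma's test of the difference passed as given in the report.

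In 8 cases a feature with no gene name in R64, which no comparison above used, lay below or above every other column and at least 2 from their median. The intergenic feature iYNL038W was at -3.995 without RTG3, against a lowest other score of -3.64, and it is named for YNL038W, the gene next to IDH1 on chromosome XIV. Also low without RTG3 were YCR097W-A at -2.24 and YML095C-A at -2.314. In the HMS1 column the intergenic feature iYOR032C, which carries the name of HMS1 itself, was at -2.362, while YBR089W was highest at 2.526 and YNL109W at 1.989. The intergenic feature iYBR255W was at -2.083 in the column labelled CBF1, and YDR467C was at -2.637 in the RTG1 column. These differences were not tested, and 1 column per strain gives no replicate check.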

How the results depend on the processing

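No paired analysis was possible because each deletion has 1 column and the labels give no replicate numbers. No gene that passed changed direction under an alternative run. Values near 0 changed sign, such as CIT2 in RTG1, from -0.14 to 0.20, and IDH2 in RTG3, from -0.08 to 0.05. Counts of genes past the threshold were small and moved with the setting. For the column labelled CBF1, 3 genes became 5 with columns centred on their median, 1 after quantile normalization, 1 without the columns low in alpha-cell genes, 6 without 6 columns written with other digits, 5 with trended and robust variance and 1 without the other bHLH columns. For RTG1, 1 gene became 20 after quantile normalization, and for RTG3, 8 became 5 after it, 9 after centring and 11 without the 6 columns. For HMS1, 2 genes became 0 after centring, 0 after quantile normalization, 0 among genes with a score in every column, 0 without the 6 columns, 0 without the other bHLH columns, 0 against only the 30 columns low in alpha-cell genes and 10 without those columns. At an unadjusted p under 0.05, limma's fit over all columns called 4.14% of genes higher and 2.45% lower in HMS1. For RTG1 against RTG3, 1 gene became 2 without the columns low in alpha-cell genes and 2 without the 6 columns. Calling a gene that was lowest or highest of all and over 2 from the median, with no p, gave 16 genes for the column labelled CBF1 (0.285%), 11 for RTG1 (0.198%), 25 for RTG3 (0.449%) and 12 for HMS1 (0.216%). It was not run for RTG1 against RTG3. The retrograde median without RTG3 was -2.89 after quantile normalization. Among genes with a score in every column, the sulfate median in the column labelled CBF1 was -0.40 and the nitrogen median without RTG3 was 1.53. Against only the 30 columns, the alpha-cell median in HMS1 was -1.70 and the ATP synthase median 0.35. The cause of these shifts was not tested. For single genes, each pair of a gene's result and an alternative run was counted, so the same gene can count several times. Of these pairs, 25 lost the call, 2 gained one, 2 moved and the rest kept their side of the threshold.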

Other observations

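Several genes with a wide spread over the series stood at opposite ends in the column labelled CBF1 and the RTG3 column. They were chosen after their values were seen, and none passed in either. TPO2, a polyamine exporter, was at 5.51 in the column labelled CBF1 and -4.23 in RTG3, with an SD of 2.69 over the columns outside the bHLH set. HSP30, a membrane heat shock protein, was at 5.79 and -4.18, the calmodulin-dependent kinase gene CMK2 at 3.51 and -5.10, and YOR385W at 3.49 and -5.71. CIP1 was at 4.85 and -4.11, and the cell wall gene NCW2 at 4.14 and -4.31. In RTG1 these 6 genes lay between -1.39 and -0.21. GSC2, the stress-induced glucan synthase subunit, was at 5.86 in the column labelled CBF1, above every other column (highest 5.43), and SIP18 was at 2.15, also the highest. Both missed the threshold with an adjusted p of 0.05001.

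In the RTG1 column, also chosen after their values were seen, the guanine nucleotide synthesis genes IMD3 and IMD2 were at 2.62 and 1.64, each 3rd highest of its values, and URA1, of pyrimidine synthesis, was at 2.96, the highest of all columns. URA1 was at -3.13 without RTG3. None passed.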
